A study of Mus musculus with 48 samples.

Results

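Fetal gonadal somatic cells (GSCs) of the mouse were compared between the embryonic days E16.5 and E12.5. The libraries were chosen by stage label alone, and the comparison rests on 4 bulk RNA-seq libraries, 2 of E12.5_GSCs and 2 of E16.5_GSCs, of the 48 samples of the series. Both groups came, by their labels, from C57BL/6 gonads described as female, and no transgene, mutation or treatment is named for either. The E12.5 cells are, by the study's methods, the flow-through of a magnetic column that holds back cells carrying SSEA1, a surface antigen of early germ cells, whereas the way the E16.5 cells were isolated is not given in the sources used here. Nothing says whether the libraries of a stage came from separate animals or pools. The p-values thus measure a spread between libraries of the same stage, which may be technical. In the main fit this spread was estimated over 8 libraries, so that the E13.5 pair and the adult P6w pair also enter it. The 2 libraries of E13.5_GSCs in the same table, labelled like those of E12.5 and E16.5, are given beside the genes where they place a change in time.

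In the mouse, the female gonad begins as a bipotential ridge built under factors such as Wt1, Nr5a1 and Lhx9. Its supporting cells become pre-granulosa cells, which wrap germ cells in nests and later in follicles, while other somatic cells form the stroma. Between the stages compared here the germ cells leave the mitotic cycle, start meiosis in answer to signals from the somatic cells, and reach the middle of meiotic prophase.

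Total counts were 19518037 and 18060579 at E12.5 and 21063754 and 15835114 at E16.5. Levels are CPM, counts relative to library size after scaling by the trimmed mean of M-values (TMM), and a gene is called at a Benjamini-Hochberg adjusted p below 0.05 in edgeR's quasi-likelihood test over all 16398 genes tested. Of these genes, 37.6% were called between E16.5 and E12.5, 20.5% higher and 17.1% lower at E16.5, and the median log2 fold change of all genes tested was -0.01. Changes of at least 2-fold made up 16.8% of the genes tested, 11.8% higher and 5.03% lower. The number of calls, 6160, fell to 3814 without the first E12.5 library and to 3899 without the second, with 0 calls turned in direction. Between the E16.5 libraries, 57 of 7481 genes of at least 20 CPM differed more than 2-fold, against 0 of 7415 between the E12.5 libraries. In their labels the second E16.5 library carries the tag L1, and the first E16.5 library and both E12.5 libraries the tag L5. Leaving out the second E16.5 library compares libraries of tag L5 only, with a single library at E16.5. The P6w libraries, of tag L1, stay in that fit and in its spread, so that the tag was not tested apart. In every gene named below as called, both libraries of one stage lay above both of the other. This was a condition for most of the naming, so that it gives no further support. It also held in 3357 of the 3364 genes called higher and in 2795 of the 2796 called lower. In these bulk samples, fewer cells of a type and less RNA per cell cannot be told apart.

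**Figure D1:**
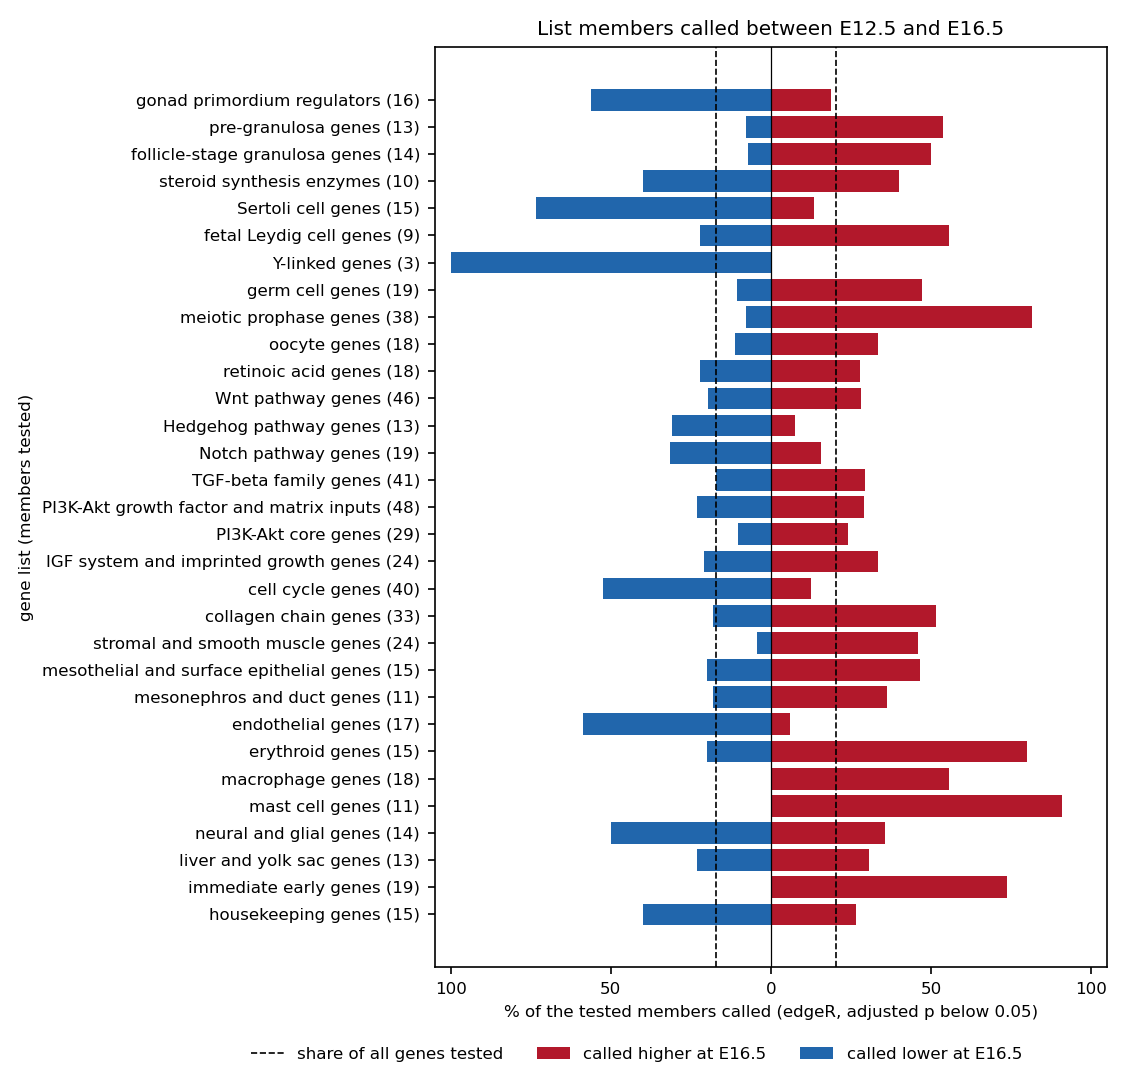
Share of the tested members of each gene list (number tested in brackets) that edgeR called higher (red, to the right) or lower (blue, to the left) at E16.5 than at E12.5, in percent. Dashed lines mark the shares over all genes tested, 20.5% higher and 17.1% lower. The meiotic prophase, mast cell, erythroid and immediate early lists reach farthest to the right, and the Y-linked, Sertoli, endothelial, primordium and cell cycle lists farthest to the left.

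Genes of meiotic prophase rose further than any other list, by the median. Of 38 members tested, 31 were called higher and 3 lower at E16.5, with a median log2 fold change of 4.38 (4.36 with genes at 0 counts at their bound). The summed level of the list was 285 and 288 CPM at E12.5 and 806 and 1027 CPM at E16.5. Of E12.5 and E16.5, germ cell depletion is described for E12.5 alone. Stage and isolation thus cannot be told apart in these genes or in the germ cell and oocyte genes. For its single-cell work the paper also describes magnetic sorting of E13.5 gonads. Whether the bulk E13.5 libraries were isolated in this way is not stated. Smc1b, a subunit of the cohesin ring that holds sister chromatids (ENSMUSG00000022432.7, chromosome 15 from 85064689 to 85131964 on the minus strand, protein-coding), had 2.27 and 2.52 CPM at E12.5 and 224 and 342 CPM at E16.5 (log2 fold change 6.88, SE 0.28, edgeR adjusted p = 5.66e-10). Against E13.5, where 54.1% of all genes were called, 28.7% higher and 25.4% lower at E16.5, 29 of the 38 members were called higher and 4 lower. The E13.5 levels of Smc1b, 14.99 and 8.90 CPM, lay between the stages and far nearer to E12.5. Stag3, the cohesin subunit of meiotic axes, had 2.13 and 2.72 CPM at E12.5 and 12.6 and 23.0 CPM at E16.5 (log2 fold change 2.87).

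Each gene named here of the synaptonemal complex, which zips homologous chromosomes together, was called higher. Apart from the set markers Sycp3 and Sycp1, these genes were named by or after their values, so that their common direction carries no weight. Sycp3, of the lateral element, had 1.76 and 1.14 CPM at E12.5 and 36.0 and 55.4 CPM at E16.5 (log2 fold change 4.96, SE 0.29, edgeR adjusted p = 1.23e-08). Sycp2, its partner, had 0.232 and 0.247 CPM at E12.5 and 17.2 and 12.2 CPM at E16.5 (log2 fold change 5.91). Sycp1, the transverse filament (ENSMUSG00000027855.13, chromosome 3 from 102818499 to 102936100 on the minus strand, protein-coding), had 0.278 and 0.148 CPM at E12.5 and 71.2 and 66.7 CPM at E16.5 (log2 fold change 8.28, SE 0.44, edgeR adjusted p = 5.23e-09). Among proteins of the central element, Syce1 had 0.417 and 0.692 CPM at E12.5 and 12.6 and 25.6 CPM at E16.5. Syce3 had 2 and 0 counts at E12.5 and 299 and 240 at E16.5. Tex12, another central element protein, had 0 counts in both E12.5 libraries and 222 and 302 at E16.5, at least 64.8-fold higher against a floor of 3 counts per library. Hormad1, which marks unsynapsed axes, had 0 counts at E12.5 and 220 and 190 at E16.5, at least 64.2-fold higher. Syce2 stood apart from these genes with a high level before meiosis, 52.6 and 47.1 CPM at E12.5 and 71.2 and 95.1 CPM at E16.5 (log2 fold change 0.74). Its fold was far below those of its partners. The fitted log2 fold change of Syce3, 7.98, was 7.11 without the second E12.5 library, and leaving out the first leaves E12.5 at 0 counts. That of Syce1, 5.09, moved to 4.49 without the second E16.5 library.

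Several genes of meiotic recombination were also called higher, whereas Trip13, which acts there too, was called lower. Spo11, whose product cuts DNA to start recombination, had 0 and 2 counts at E12.5 and 217 and 194 at E16.5, a ratio of 215 with an exact 95% counting interval from 59.9 to 1806. Prdm9, which marks the sites of these cuts, had 1.76 and 1.14 CPM at E12.5 and 24.3 and 36.8 CPM at E16.5 (log2 fold change 4.38, SE 0.30, edgeR adjusted p = 5.88e-08). Meiob, which binds single-stranded DNA, had 0 counts at E12.5 and 113 and 88 at E16.5, at least 33.0-fold higher. Dmc1, the meiotic recombinase, was already measured at E12.5, with 1.58 and 1.04 CPM at E12.5 and 9.13 and 10.4 CPM at E16.5 (log2 fold change 2.89, SE 0.38, edgeR adjusted p = 3.54e-05). Msh5, of the crossover pathway, had 4.77 and 5.58 CPM at E12.5 and 18.7 and 18.1 CPM at E16.5 (log2 fold change 1.83). Tex11, an X-linked gene of crossover formation, had 0 and 1 counts at E12.5 and 224 and 96 at E16.5, a ratio of 315 (counting interval 60.5 to 13445). Majin, which tethers telomeres to the nuclear envelope, had 1 and 0 counts at E12.5 and 158 and 186 at E16.5, a ratio of 393 (counting interval 65.0 to 14451). The fitted log2 fold changes of Spo11, Tex11 and Majin, 7.60, 7.98 and 8.20, were 6.64, 7.11 and 7.40 when the E12.5 library without counts was left out, and leaving out the other leaves E12.5 at 0 counts. Counting intervals and floors cover counting error only.

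Stra8, the factor induced by retinoic acid at meiotic entry, had 0.695 and 0.296 CPM at E12.5 and 6.97 and 10.1 CPM at E16.5 (log2 fold change 4.07, SE 0.44, edgeR adjusted p = 5.62e-06). Its E13.5 levels, 3.91 and 6.05 CPM, were closer to E16.5 than those of the synaptonemal genes, and E16.5 and E13.5 differed by a log2 fold change of 0.77 (edgeR adjusted p = 0.0734). The fold of Stra8 moved to 4.80 without the first E12.5 library. The 3 members called lower, among them Rec8 and Trip13, moved by less than 2-fold. Rec8, a cohesin subunit, had 95.4 and 109.7 CPM at E12.5 and 58.0 and 85.1 CPM at E16.5 (log2 fold change -0.52), and this call was lost without the second E12.5 or the first E16.5 library. Trip13, a spindle checkpoint and axis remodelling gene, had 25.3 and 22.2 CPM at E12.5 and 16.2 and 15.3 CPM at E16.5. The call of Trip13 was lost without either E12.5 library and without the second E16.5 library.

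**Figure D2:**
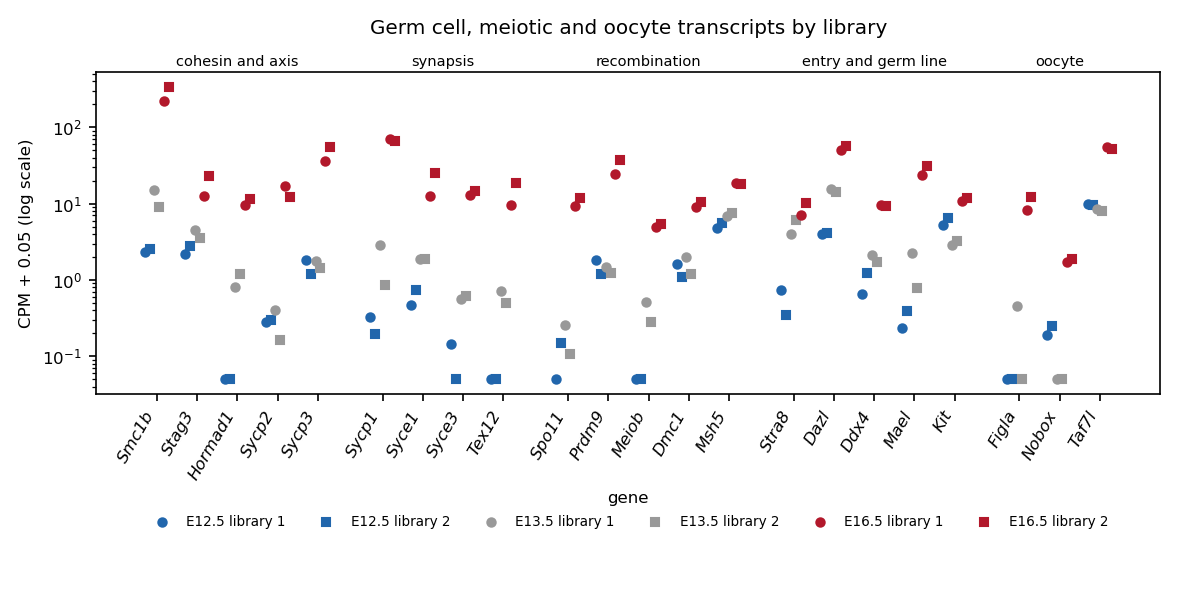
Level of 22 germ cell, meiotic and oocyte transcripts in each library, as CPM + 0.05 on a logarithmic axis, with E12.5 in blue, E13.5 in grey and E16.5 in red, and circles and squares for library 1 and 2. Points on the lowest line at 0.05 are libraries with 0 counts. The E16.5 points lie above the E12.5 points in each of the 22 genes, by the most in Tex12, Sycp1 and Hormad1.

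The promoters of the rising meiotic genes were read from the RefSeq table of build GRCm38.p6, as 250 bases before to 50 after the start of transcription. Of the 31 genes, 25 had a promoter there, 7 of them (28.0%) with CNCCTCAG, the core motif bound by Stra8 and its partner, and 8 (32.0%) with CACGTG, the E-box bound by Max family factors. A gene is counted where any of its promoters in the table holds the letters. Over all 12475 genes tested that had a promoter, the shares were 10.9% and 11.0%, on either strand. These motifs cannot overlap each other. The longer TCACGTGA, which contains the E-box, was found in 0 of the 25 and in 1.94% of genes tested, and a match in letters is a description and not a site of binding. The windows of Tex12 (chr9:50561219-50561518, minus strand) and Sycp1 (chr3:102936051-102936350, minus strand) are shown with these motifs in capitals, written 5′ to 3′ on the strand of the gene. Among rising members with a single promoter in the table that holds both, these have the largest log2 fold changes.
Tex12: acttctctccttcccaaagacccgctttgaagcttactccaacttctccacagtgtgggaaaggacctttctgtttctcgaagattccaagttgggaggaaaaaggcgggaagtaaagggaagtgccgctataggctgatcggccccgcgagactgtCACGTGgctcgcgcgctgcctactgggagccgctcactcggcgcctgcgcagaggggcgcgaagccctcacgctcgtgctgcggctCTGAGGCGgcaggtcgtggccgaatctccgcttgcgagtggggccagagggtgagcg
Sycp1: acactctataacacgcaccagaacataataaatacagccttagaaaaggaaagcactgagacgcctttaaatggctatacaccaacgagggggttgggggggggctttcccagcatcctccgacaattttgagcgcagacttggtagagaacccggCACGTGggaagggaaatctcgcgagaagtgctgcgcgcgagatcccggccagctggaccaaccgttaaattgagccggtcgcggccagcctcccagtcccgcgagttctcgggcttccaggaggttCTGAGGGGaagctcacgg
In Tex12 the E-box starts 93 bases before the start site and the reverse complement of the other motif 7 bases before it. In Sycp1 the E-box starts 94 bases before the start site and the other motif, again as its reverse complement, 32 bases after it.

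Genes of the germ line were called higher in 9 of 19 members tested and lower in 2, with a median log2 fold change of 1.03. Dazl, an RNA-binding protein that licenses germ cells for meiosis, had 3.94 and 4.05 CPM at E12.5 and 49.9 and 56.3 CPM at E16.5 (log2 fold change 3.73, SE 0.19, edgeR adjusted p = 4.70e-09). Ddx4, the germ cell helicase Vasa, had 0.602 and 1.19 CPM at E12.5 and 9.52 and 9.30 CPM at E16.5 (log2 fold change 3.39, SE 0.37, edgeR adjusted p = 5.94e-06). Mael and Fkbp6 act with small RNAs that silence transposons. Mael had 0.185 and 0.346 CPM at E12.5 and 23.8 and 31.5 CPM at E16.5 (log2 fold change 6.67, SE 0.45, edgeR adjusted p = 4.81e-08). Fkbp6 had 5.56 and 4.99 CPM at E12.5 and 49.6 and 85.5 CPM at E16.5 (log2 fold change 3.67). Rnf17, a Tudor domain gene, had 2.92 and 2.52 CPM at E12.5 and 17.5 and 16.9 CPM at E16.5 (log2 fold change 2.66). Kit, the receptor of germ cells for Kit ligand, had 5.23 and 6.42 CPM at E12.5 and 10.7 and 11.7 CPM at E16.5 (log2 fold change 0.94), a call lost without the first E12.5 library. Piwil2, of the small RNA pathway of Mael, had 0.463 and 0.296 CPM at E12.5 and 2.90 and 3.55 CPM at E16.5 (log2 fold change 3.05). Utf1, a gene of the earlier, pluripotent state, was called lower and had 14.4 and 13.8 CPM at E12.5 and 1.26 and 0.857 CPM at E16.5 (log2 fold change -3.70, SE 0.26, edgeR adjusted p = 6.76e-08). Pou5f1, which was not called, had 3.06 and 1.58 CPM at E12.5 and 1.39 and 1.29 CPM at E16.5 against 12.7 and 17.2 CPM at E13.5. Nanog, also not called, had 0.695 and 0.543 CPM at E12.5 and 0.866 and 0.428 CPM at E16.5.

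Of 18 oocyte genes tested, 6 were called higher and 2 lower, or 33.3% and 11.1% beside 20.5% and 17.1% of all genes tested. Figla, the transcription factor that starts the primordial follicle program (ENSMUSG00000030001.4, chromosome 6 from 86016171 to 86020996 on the plus strand, protein-coding), had 0 counts in both E12.5 libraries and 190 and 199 counts at E16.5, or 8.22 and 12.2 CPM, at least 55.5-fold higher. Lhx8, a LIM homeobox factor of oocytes, had 0 and 0 counts at E12.5 and 22 and 13 at E16.5, at least 5.37-fold higher. Nobox, a homeobox factor of early oocytes, had 0.139 and 0.198 CPM at E12.5 and 1.69 and 1.84 CPM at E16.5 (log2 fold change 3.34, SE 0.83, edgeR adjusted p = 0.00625). Taf7l, a germ cell variant of a general transcription factor subunit, had 9.87 and 9.68 CPM at E12.5 and 54.9 and 52.0 CPM at E16.5 (log2 fold change 2.45). Ybx2, which stores oocyte messenger RNA, had 1.71 and 1.63 CPM at E12.5 and 4.42 and 6.61 CPM at E16.5 (log2 fold change 1.71). Both called lower were egg genes of low level, with 2.73 and 2.37 CPM at E12.5 and 0.303 and 0.306 CPM at E16.5 for Zar1 and 2.36 and 1.63 CPM at E12.5 and 0.519 and 0.673 CPM at E16.5 for Padi6, whose call was lost without the first E12.5 or the first E16.5 library. The genes of the egg coat and of growing oocytes were near the limit of counting. Zp1, Zp2, Zp3, Bmp15, Oosp1 and Nlrp5 each stayed below 1 CPM in all 4 libraries and were not called.

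Supporting cell genes were measured at both stages. Of 13 pre-granulosa genes, 7 were called higher and 1 lower, with a median log2 fold change of 0.54. Foxl2, the granulosa lineage factor, had 5.79 and 6.62 CPM at E12.5 and 7.88 and 9.55 CPM at E16.5 (log2 fold change 0.48, SE 0.20, edgeR adjusted p = 0.0722), which passed the test when the first E16.5 library was left out and in no other case of 1 library left out. Its levels at E13.5 were 14.3 and 13.2 CPM, above both stages. Fst, an activin antagonist, had 110.0 and 103 CPM at E12.5 and 100.1 and 83.8 CPM at E16.5 (log2 fold change -0.21, adjusted p = 0.186). Rspo1, a Wnt amplifier of the ovary, had 61.8 and 59.6 CPM at E12.5 and 52.9 and 56.6 CPM at E16.5 (log2 fold change -0.15, adjusted p = 0.435). Kitl, the ligand by which granulosa cells support germ cells, had 343 and 336 CPM at E12.5 and 334 and 353 CPM at E16.5 (log2 fold change 0.02, adjusted p = 0.92). Fst, Rspo1 and Kitl did not pass the test, but Fst did, with a log2 fold change of -0.35, without the first E16.5 library. Wnt4, the ovarian Wnt ligand, was the member called lower, with 307 and 275 CPM at E12.5 and 218 and 193 CPM at E16.5 (log2 fold change -0.50, SE 0.12, edgeR adjusted p = 0.00367), and lost the call without the first E12.5 library.

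The called members rose by up to a few fold. Cdkn1b, the cell cycle inhibitor p27, had 169.9 and 185 CPM at E12.5 and 539 and 637 CPM at E16.5 (log2 fold change 1.73, SE 0.12, edgeR adjusted p = 6.61e-08), with 301 and 322 CPM at E13.5 between the stages. Irx3, a homeobox gene of pre-granulosa cells, had 15.4 and 14.8 CPM at E12.5 and 42.0 and 40.4 CPM at E16.5 (log2 fold change 1.45, SE 0.15, edgeR adjusted p = 4.32e-06). Irx5, its neighbour and relative, had 2.64 and 2.12 CPM at E12.5 and 7.19 and 8.08 CPM at E16.5 (log2 fold change 1.67). Lgr5, the R-spondin receptor of the ovarian surface, had 55.4 and 57.2 CPM at E12.5 and 104 and 95.5 CPM at E16.5 (log2 fold change 0.82). Runx1, a supporting cell factor, had 35.9 and 35.1 CPM at E12.5 and 60.6 and 64.5 CPM at E16.5 (log2 fold change 0.82). Gng13, a G protein subunit, rose over E12.5 with 38.5 and 34.04 CPM at E12.5 and 95.4 and 81.5 CPM at E16.5 (log2 fold change 1.29), but had 159 and 172 CPM at E13.5. Of these 6, Gng13 was the one whose E13.5 levels exceeded both stages.

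Genes that mark granulosa cells of later follicles were called higher in 7 of 14 and lower in 1. Inhba, the activin subunit, had 2.501 and 1.98 CPM at E12.5 and 9.87 and 11.9 CPM at E16.5 (log2 fold change 2.27, SE 0.18, edgeR adjusted p = 1.90e-07). Inhbb, the other activin subunit, had 37.2 and 37.8 CPM at E12.5 and 11.5 and 9.06 CPM at E16.5 (log2 fold change -1.86, SE 0.14, edgeR adjusted p = 9.33e-08). Esr1, an oestrogen receptor, had 13.4 and 10.2 CPM at E12.5 and 56.4 and 39.2 CPM at E16.5 (log2 fold change 2.02). Gja1, connexin 43 of gap junctions, had 132 and 135 CPM at E12.5 and 205 and 335 CPM at E16.5 (log2 fold change 1.013). Aldh1a1 had 112 and 89.0 CPM at E12.5 and 402 and 239.9 CPM at E16.5 (log2 fold change 1.68), in counts identical to those of the row E030003E18Rik, so that these rows cannot be told apart. Fshr, the receptor of follicle-stimulating hormone, had 0 and 1 counts at E12.5 and 0 and 2 at E16.5.

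Of 16 regulators of the bipotential gonad tested, 9 were called lower, or 6 to 10 as single libraries were left out, and 3 higher, with a median log2 fold change of -0.41. Against E13.5, 6 were called higher and 5 lower at E16.5, beside 28.7% and 25.4% of all genes tested. Lhx9, a LIM homeobox factor needed for the ridge to form, had 312 and 305 CPM at E12.5 and 113 and 98.7 CPM at E16.5 (log2 fold change -1.55, SE 0.12, edgeR adjusted p = 1.18e-07). Emx2 had 94.2 and 95.6 CPM at E12.5 and 38.3 and 27.4 CPM at E16.5 (log2 fold change -1.53, SE 0.16, edgeR adjusted p = 2.82e-06). Cbx2, a Polycomb subunit, had 23.4 and 26.7 CPM at E12.5 and 5.32 and 7.04 CPM at E16.5 (log2 fold change -2.03, SE 0.20, edgeR adjusted p = 2.13e-06). Nr5a1, steroidogenic factor 1, had 196 and 219 CPM at E12.5 and 82.4 and 118 CPM at E16.5 (log2 fold change -1.05, SE 0.16, edgeR adjusted p = 1.01e-04). Wt1 had 532 and 537 CPM at E12.5 and 326 and 240.3 CPM at E16.5 (log2 fold change -0.92, SE 0.13, edgeR adjusted p = 8.24e-05). Its E13.5 levels, 191 and 192 CPM, lay below both stages. Gata4 had 183 and 179 CPM at E12.5 and 142 and 127 CPM at E16.5 (log2 fold change -0.43, adjusted p = 0.0096). Nr2f2, a factor of interstitial cells, had 205 and 196 CPM at E12.5 and 162 and 143 CPM at E16.5 (log2 fold change -0.39, adjusted p = 0.0175). Its E13.5 levels, 99.3 and 91.4 CPM, also lay below both stages. The calls of Gata4 and Nr2f2 were lost without either E12.5 library, and that of Nr2f2 also with the E12.5 and E16.5 libraries alone. Nr2f1 had 17.6 and 14.97 CPM at E12.5 and 3.51 and 5.45 CPM at E16.5 (log2 fold change -1.88). Osr1, a factor of intermediate and lateral mesoderm, ran the other way, with 11.2 and 11.9 CPM at E12.5 and 89.7 and 93.2 CPM at E16.5 (log2 fold change 2.98, SE 0.18, edgeR adjusted p = 1.29e-08). Tcf21, of interstitial progenitors, had 42.0 and 49.9 CPM at E12.5 and 53.2 and 111 CPM at E16.5 (log2 fold change 0.83), and without the second E16.5 library this value was 0.21 with no call. It also lost the call without the first E12.5 library and in DESeq2.

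Genes of Sertoli cells, the supporting cells of the testis, and genes of the Y chromosome were counted in the E12.5 libraries although the labels give female gonads. The 4 Y-linked genes listed summed to 205 and 170 counts at E12.5 and to 0 and 1 at E16.5, with 5 and 4 at E13.5. Ddx3y (ENSMUSG00000069045.11, chromosome Y from 1260771 to 1286629 on the minus strand, protein-coding) had 97 and 103 counts at E12.5 and 0 and 1 at E16.5, a ratio of 157 between E12.5 and E16.5 (counting interval 33.5 to 7486). Kdm5d had 78 and 44 counts at E12.5 and 0 at E16.5, at least 11.8-fold lower. Uty had 15 and 16 counts at E12.5 and 0 at E16.5, at least 3.78-fold lower. All 3 Y-linked genes tested were called lower at E16.5, and the fourth, Eif2s3y, had 15 and 7 counts at E12.5 and 0 at E16.5. The fitted log2 fold change of Ddx3y, -7.201, was -6.13 without the first E16.5 library, and leaving out the second leaves E16.5 at 0 counts. The median log2 fold change over the 3 was -7.20, or -3.57 with the genes at 0 counts at their bound.

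Of 15 Sertoli cell genes, 11 were called lower and 2 higher at E16.5, with a median log2 fold change of -1.54. Amh, the hormone that regresses the Müllerian duct, had 10.7 and 7.86 CPM at E12.5 and 0.606 and 2.20 CPM at E16.5 (log2 fold change -2.83, SE 0.47, edgeR adjusted p = 2.75e-04), and its log2 fold change ranged from -3.93 to -2.08 as single libraries were left out, lowest without the second and highest without the first E16.5 library. Dhh, the Hedgehog ligand of Sertoli cells, had 6.02 and 5.43 CPM at E12.5 and 0.606 and 0.490 CPM at E16.5 (log2 fold change -3.35, SE 0.32, edgeR adjusted p = 1.58e-06). Cst9 had 59.0 and 59.0 CPM at E12.5 and 4.37 and 3.49 CPM at E16.5 (log2 fold change -3.89, SE 0.25, edgeR adjusted p = 3.11e-08). Dmrt1 had 7.37 and 8.05 CPM at E12.5 and 0.866 and 1.53 CPM at E16.5 (log2 fold change -2.71, SE 0.36, edgeR adjusted p = 5.35e-05). At E13.5 these 4 genes had 0.762 and 0.456, 0.406 and 0.684, 3.05 and 5.93 and 2.74 and 2.91 CPM, in the same order. Sox9, the factor of Sertoli fate that other epithelia and cartilage also use, was called higher, with 34.9 and 35.3 CPM at E12.5 and 124 and 129 CPM at E16.5 (log2 fold change 1.85, SE 0.13, edgeR adjusted p = 7.70e-08), and Mro with 11.0 and 13.9 CPM at E12.5 and 29.4 and 35.1 CPM at E16.5 (log2 fold change 1.37). Sox10, which neural crest cells also express, had 4.68 and 5.04 CPM at E12.5 and 0.0433 and 0.0612 CPM at E16.5. The Y-linked counts fell with this list, and their part in the result was not tested.

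**Figure D3:**
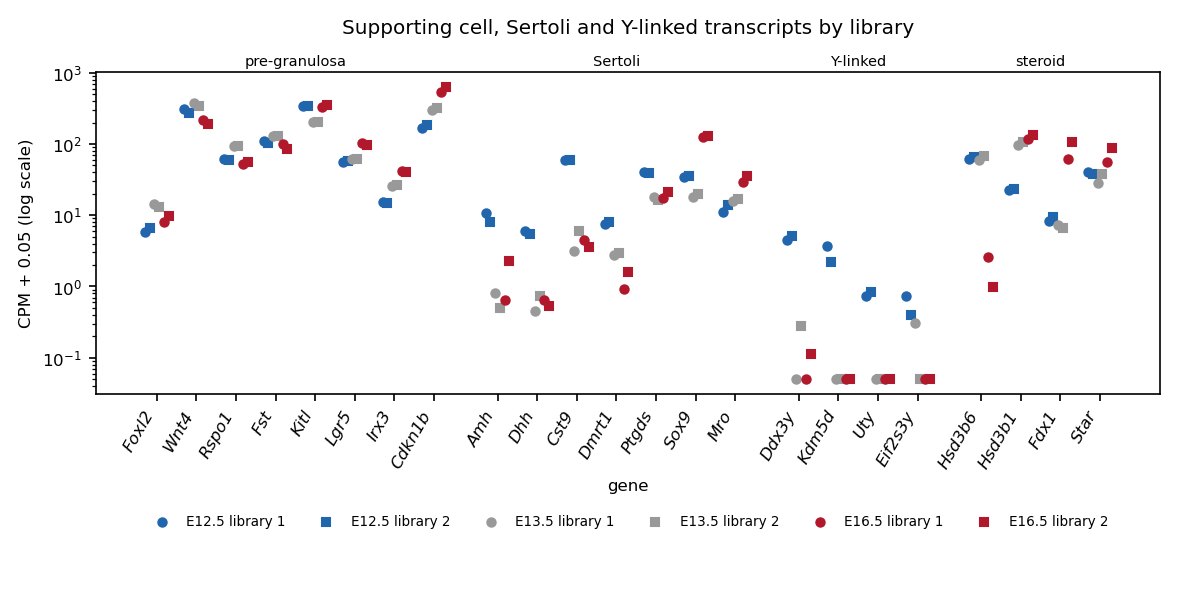
Level of pre-granulosa, Sertoli, Y-linked and steroid synthesis transcripts in each library, as CPM + 0.05 on a logarithmic axis, with colours for stages and symbols for library 1 and 2. Points at 0.05 have 0 counts. Of the pre-granulosa genes, Foxl2, Wnt4, Rspo1, Fst, Kitl and Lgr5 differ by less than 2-fold between E12.5 and E16.5. Amh, Dhh, Cst9, Dmrt1 and the 4 Y-linked genes are highest in the E12.5 libraries, and Hsd3b6 is lowest and Fdx1 highest in the E16.5 libraries.

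Steroid synthesis enzymes moved both ways. Of 10 tested, 4 were called higher and 4 lower, or 40.0% each way beside 20.5% and 17.1% of all genes tested. Hsd3b6 and Hsd3b1 are isoforms of 3-beta-hydroxysteroid dehydrogenase. Hsd3b6 (ENSMUSG00000027869.14, chromosome 3 from 98805504 to 98814443 on the minus strand, protein-coding) had 62.0 and 65.8 CPM at E12.5 and 2.55 and 0.918 CPM at E16.5 (log2 fold change -5.12, SE 0.81, edgeR adjusted p = 1.71e-04), with 59.5 and 67.8 CPM at E13.5. Hsd3b1 (ENSMUSG00000027871.16, chromosome 3 from 98852194 to 98859794 on the minus strand, protein-coding) had 22.7 and 23.6 CPM at E12.5 and 118 and 134 CPM at E16.5 (log2 fold change 2.44, SE 0.13, edgeR adjusted p = 4.74e-09), with 97.5 and 107 CPM at E13.5. The rise of Hsd3b1 was thus present at E13.5, and the fall of Hsd3b6 was not. The log2 fold change of Hsd3b6 was -6.11 without the first E16.5 library. These genes are close relatives, and how reads that match both were counted is not given in the sources used here. None of the 7 steroid genes with a promoter in the RefSeq table described above holds AAGGTCA, letters bound by Nr5a1. Of genes tested, 4.26% hold these letters. With so low a share and 7 genes, finding none was likely in any case and says nothing of Nr5a1.

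Fdx1, the ferredoxin that passes electrons to the enzymes of the mitochondrion, had 8.34 and 9.24 CPM at E12.5 and 61.3 and 107 CPM at E16.5 (log2 fold change 3.26, SE 0.23, edgeR adjusted p = 6.76e-08). Star, which carries cholesterol into the mitochondrion, had 40.9 and 37.8 CPM at E12.5 and 55.8 and 88.0 CPM at E16.5 (log2 fold change 0.87, SE 0.19, edgeR adjusted p = 0.00225). Fdxr, the reductase that feeds Fdx1, had 98.9 and 98.7 CPM at E12.5 and 60.7 and 79.1 CPM at E16.5 (log2 fold change -0.50), a call lost without either E12.5 library. Cyp17a1, of androgen synthesis, had 3.01 and 1.83 CPM at E12.5 and 3.25 and 5.51 CPM at E16.5 (log2 fold change 0.81), and lost its call without the second E12.5 or the second E16.5 library and with the libraries of both stages alone. Por, which feeds electrons to enzymes of the endoplasmic reticulum, had 124 and 98.3 CPM at E12.5 and 84.1 and 73.2 CPM at E16.5 (log2 fold change -0.50), a call lost without the first E12.5 library. Among other genes of fetal Leydig cells, the steroid cells of the fetal testis, Insl3 had 0.417 and 0.494 CPM at E12.5 and 1.30 and 1.16 CPM at E16.5 (log2 fold change 1.43, adjusted p = 0.0587) and was not called. Lhcgr, the receptor of luteinizing hormone, had 4.22 and 3.51 CPM at E12.5 and 8.31 and 8.38 CPM at E16.5 (log2 fold change 1.11). Prlr, the prolactin receptor, had 2.55 and 2.57 CPM at E12.5 and 26.2 and 18.4 CPM at E16.5 (log2 fold change 3.13, SE 0.19, edgeR adjusted p = 1.82e-08). In all, 5 of the 9 fetal Leydig cell genes were called higher and 2 lower, or 55.6% and 22.2% beside 20.5% and 17.1% of all genes tested. Ren1 had 10.3 and 10.3 CPM at E12.5 and 0.952 and 1.65 CPM at E16.5, in counts identical to those of Ren2.

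Of 18 retinoic acid genes, which act upstream of Stra8, 5 were called higher and 4 lower, or 27.8% and 22.2% beside 20.5% and 17.1% of all genes tested, with a median log2 fold change of 0.025. Aldh1a2, which makes retinoic acid, had 94.9 and 96.5 CPM at E12.5 and 88.4 and 89.8 CPM at E16.5 (log2 fold change -0.10, adjusted p = 0.535). Rdh10, of the step before it, had 25.2 and 30.5 CPM at E12.5 and 96.7 and 81.5 CPM at E16.5 (log2 fold change 1.68, SE 0.17, edgeR adjusted p = 2.63e-06). Cyp26b1, which degrades retinoic acid and shields testicular germ cells from meiosis, had 12.6 and 14.9 CPM at E12.5 and 1.95 and 1.41 CPM at E16.5 (log2 fold change -3.01, SE 0.32, edgeR adjusted p = 3.66e-06), with 2.08 and 1.43 CPM at E13.5. The Sertoli cell genes Amh, Dhh, Cst9 and Dmrt1 and the Y-linked counts were likewise lower at E13.5 and E16.5 than at E12.5, and their part in this result was not tested. Crabp2, a carrier of retinoic acid to its receptor, had 27.1 and 29.7 CPM at E12.5 and 5.15 and 5.69 CPM at E16.5 (log2 fold change -2.39, SE 0.17, edgeR adjusted p = 6.76e-08), and fell after E13.5, where it had 20.9 and 24.9 CPM. Rxra, a partner of the retinoic acid receptors, had 27.7 and 26.1 CPM at E12.5 and 17.96 and 18.4 CPM at E16.5 (log2 fold change -0.57), a call lost without either E12.5 library. Rbp4, a retinol carrier of the blood, had 1.67 and 1.14 CPM at E12.5 and 4.59 and 4.77 CPM at E16.5, with 47.9 and 55.2 CPM at E13.5.

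Wnt pathway genes were called higher in 13 of 46 and lower in 9, or 28.3% and 19.6% beside 20.5% and 17.1% of all genes tested. The 13 became 8 without either E12.5 library. Inhibitors differed among themselves. Sfrp1, a secreted Wnt antagonist, had 246 and 226 CPM at E12.5 and 686 and 518 CPM at E16.5 (log2 fold change 1.35, SE 0.16, edgeR adjusted p = 1.54e-05). Sfrp2, its relative, had 8.76 and 5.98 CPM at E12.5 and 19.2 and 19.7 CPM at E16.5. Dkk3 had 5.19 and 4.20 CPM at E12.5 and 21.6 and 15.9 CPM at E16.5. Dkk1, which blocks the Lrp coreceptors, had 92 and 88 counts at E12.5 and 3 and 0 at E16.5. Its fitted log2 fold change, -5.72, was -4.98 without the second and -9.21 without the first E16.5 library. Wif1, which binds Wnt ligands, had 4.08 and 3.41 CPM at E12.5 and 0.390 and 0.245 CPM at E16.5. Lef1, a nuclear effector, had 36.5 and 39.5 CPM at E12.5 and 12.47 and 11.6 CPM at E16.5 (log2 fold change -1.66, SE 0.19, edgeR adjusted p = 8.00e-06). Nkd2, a feedback inhibitor, had 24.3 and 20.5 CPM at E12.5 and 51.5 and 51.9 CPM at E16.5 (log2 fold change 1.21). Wnt5b, a ligand, had 28.4 and 28.3 CPM at E12.5 and 16.8 and 17.6 CPM at E16.5 (log2 fold change -0.73).

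Hedgehog genes were called higher in 1 of 13 and lower in 4, or 7.7% and 30.8% beside 20.5% and 17.1% of all genes tested. Notch genes were called higher in 3 of 19 and lower in 6, or 15.8% and 31.6%. The 6 became 3 without the second E12.5 library. Against E13.5, 5 Hedgehog genes were called higher and 2 lower at E16.5, and 10 Notch genes higher and 3 lower. Of all genes tested, 28.7% were called higher and 25.4% lower against E13.5. Gas1, a Hedgehog coreceptor, had 127 and 132 CPM at E12.5 and 289 and 182 CPM at E16.5 (log2 fold change 0.87, SE 0.18, edgeR adjusted p = 0.00156). Among Notch genes, the receptor Notch2 had 51.3 and 44.7 CPM at E12.5 and 104 and 128 CPM at E16.5 (log2 fold change 1.27, SE 0.15, edgeR adjusted p = 1.49e-05). The ligand Jag1 had 4.86 and 3.90 CPM at E12.5 and 10.9 and 16.3 CPM at E16.5 (log2 fold change 1.63, SE 0.26, edgeR adjusted p = 1.81e-04). Their targets Hey1 and Hes1 ran the other way. Hey1 had 26.2 and 30.6 CPM at E12.5 and 6.28 and 9.24 CPM at E16.5 (log2 fold change -1.88, SE 0.23, edgeR adjusted p = 1.70e-05). Hes1 had 26.8 and 24.8 CPM at E12.5 and 10.6 and 15.9 CPM at E16.5 (log2 fold change -0.97). Heyl had 16.7 and 16.4 CPM at E12.5 and 10.04 and 11.4 CPM at E16.5, and lost its call without either E12.5 or without the first E16.5 library. Gli2, a transcription factor of the Hedgehog pathway, had 11.1 and 9.83 CPM at E12.5 and 4.93 and 7.53 CPM at E16.5, and lost its call without any 1 of the same 3 libraries and in DESeq2.

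Of 41 TGF-beta family genes, 12 were called higher and 7 lower, or 29.3% and 17.1% beside 20.5% and 17.1% of all genes tested. Bambi, a decoy receptor, had 15.8 and 16.4 CPM at E12.5 and 68.7 and 152 CPM at E16.5 (log2 fold change 2.77, SE 0.31, edgeR adjusted p = 6.23e-06), and 2.09 on the log2 scale without the second E16.5 library. Tgfb3, a ligand, had 16.0 and 11.7 CPM at E12.5 and 33.7 and 39.4 CPM at E16.5 (log2 fold change 1.40). Gdf10, another ligand, had 1.76 and 1.98 CPM at E12.5 and 8.79 and 8.02 CPM at E16.5 (log2 fold change 2.17). Acvr2b, a type II activin receptor, had 39.4 and 32.4 CPM at E12.5 and 17.2 and 14.3 CPM at E16.5 (log2 fold change -1.19).

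The PI3K-Akt pathway carries growth factor and matrix signals into the cell. Of 48 inputs, 14 were called higher and 11 lower, or 29.2% and 22.9%. Of 29 core members, 7 were called higher and 3 lower, or 24.1% and 10.3%. Over all genes tested the shares were 20.5% and 17.1%. The median log2 fold changes of these lists were -0.019 and -0.015. Without the first E12.5 library 9 inputs were called higher, and without the second 8. Thbs1 and Thbs2 are thrombospondins of the matrix. Thbs1 had 11.5 and 11.9 CPM at E12.5 and 86.1 and 77.1 CPM at E16.5 (log2 fold change 2.80, SE 0.16, edgeR adjusted p = 1.14e-08). Thbs2 had 10.7 and 10.1 CPM at E12.5 and 51.8 and 37.4 CPM at E16.5 (log2 fold change 2.10, SE 0.21, edgeR adjusted p = 2.25e-06). Lama2, a laminin chain, had 2.27 and 3.11 CPM at E12.5 and 11.9 and 10.8 CPM at E16.5 (log2 fold change 2.08). Spp1, osteopontin, had 18.7 and 21.0 CPM at E12.5 and 5.89 and 6.92 CPM at E16.5 (log2 fold change -1.64). Angpt2, which antagonizes Tek, had 0.880 and 1.93 CPM at E12.5 and 5.28 and 6.55 CPM at E16.5. Its log2 fold change, 2.07, became 2.73 without the second E12.5 library. In the core, Foxo3, a transcription factor that Akt inhibits and that keeps primordial follicles at rest, had 59.8 and 54.6 CPM at E12.5 and 166 and 204 CPM at E16.5 (log2 fold change 1.70, SE 0.14, edgeR adjusted p = 2.54e-07). Pdpk1, the kinase that activates Akt, had 20.5 and 20.2 CPM at E12.5 and 40.7 and 42.5 CPM at E16.5 (log2 fold change 1.03, SE 0.17, edgeR adjusted p = 2.38e-04). Rheb, an activator of mTOR, had 78.2 and 79.3 CPM at E12.5 and 141 and 175 CPM at E16.5 (log2 fold change 1.006). Inpp4b, a phosphatase that opposes the pathway, had 6.53 and 5.68 CPM at E12.5 and 3.33 and 2.26 CPM at E16.5, and lost its call without either E12.5 or without the second E16.5 library.

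In the IGF system and imprinted growth genes, 8 of 24 were called higher and 5 lower, or 33.3% and 20.8%. The shares over all genes tested were 20.5% and 17.1%. Igf1 had 83.0 and 82.0 CPM at E12.5 and 172 and 141 CPM at E16.5 (log2 fold change 0.92, SE 0.13, edgeR adjusted p = 6.72e-05). Igf2, the fetal growth factor, had 965 and 988 CPM at E12.5 and 798 and 656 CPM at E16.5 (log2 fold change -0.43, adjusted p = 0.0862), which was called lower without the first E16.5 library. Igfbp6, a binding protein of these factors, had 10.01 and 10.7 CPM at E12.5 and 28.4 and 43.3 CPM at E16.5 (log2 fold change 1.79, SE 0.20, edgeR adjusted p = 8.25e-06). Igfbp7, a related secreted protein, had 4.96 and 5.14 CPM at E12.5 and 15.2 and 10.2 CPM at E16.5 (log2 fold change 1.34). Dlk1, a paternally expressed Notch family ligand, had 119.9 and 116 CPM at E12.5 and 281 and 241 CPM at E16.5 (log2 fold change 1.14, SE 0.20, edgeR adjusted p = 4.33e-04), a call lost in DESeq2. Peg3 had 1148 and 1124 CPM at E12.5 and 575 and 387 CPM at E16.5 (log2 fold change -1.24, SE 0.19, edgeR adjusted p = 1.51e-04). Cdkn1c, the maternally expressed inhibitor p57, had 537 and 466 CPM at E12.5 and 301 and 233 CPM at E16.5 (log2 fold change -0.91, SE 0.15, edgeR adjusted p = 2.05e-04). Peg3, paternally expressed, and Cdkn1c thus fell while Dlk1 rose.

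Most of the cell cycle genes called fell by less than 2-fold. Of 40 tested, 21 were called lower and 5 higher, with a median log2 fold change of -0.52. Of the 21, 3 fell at least 2-fold, as did 5.03% of all genes tested. All 6 subunits listed of the MCM2-7 replicative helicase were called lower. Mcm7 had 136 and 143 CPM at E12.5 and 67.7 and 67.3 CPM at E16.5 (log2 fold change -1.05, SE 0.11, edgeR adjusted p = 5.76e-06). Mcm3 had 333 and 329.9 CPM at E12.5 and 175 and 145 CPM at E16.5 (log2 fold change -1.05, SE 0.12, edgeR adjusted p = 8.48e-06). Among mitotic genes, Plk1, a kinase of spindle assembly, had 60.9 and 58.9 CPM at E12.5 and 26.9 and 33.1 CPM at E16.5 (log2 fold change -1.002, SE 0.15, edgeR adjusted p = 1.36e-04). Cdc20, an activator of the anaphase-promoting complex, had 100.2 and 90.4 CPM at E12.5 and 55.8 and 47.7 CPM at E16.5 (log2 fold change -0.88, SE 0.13, edgeR adjusted p = 9.99e-05). Ccnb1, cyclin B1, had 108 and 111 CPM at E12.5 and 64.5 and 63.0 CPM at E16.5. Mki67, which cycling cells express, had 114 and 107 CPM at E12.5 and 144 and 80.3 CPM at E16.5 (log2 fold change 0.03, adjusted p = 0.931), so that the E16.5 libraries lay on either side of E12.5. It was called higher without the second E16.5 library and lower without the first. The members called higher included cyclin D3, with 245 and 263 CPM at E12.5 and 504 and 722 CPM at E16.5 for Ccnd3, E2f2, with 9.82 and 12.2 CPM at E12.5 and 39.0 and 45.05 CPM at E16.5, and the inhibitor p21, with 112 and 128 CPM at E12.5 and 161 and 246 CPM at E16.5 for Cdkn1a.

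Of the 21 cell cycle genes called lower, 16 had a promoter in the RefSeq table. CCAAT, the letters bound by NF-Y, was found in 15 (93.8%), and TTTGAA, the core of the CHR element of mitotic genes, in 8 of the 16, against 42.3% and 14.6% of all genes tested with a promoter. Over all 32 tested cell cycle genes with a promoter the shares were 75.0% and 34.4%. The windows of Plk1 (chr7:122159185-122159484, plus strand) and Cdc20 (chr4:118437294-118437593, minus strand) are shown with these letters in capitals. These genes fell by the most among those with a single promoter in the table that holds both.
Plk1: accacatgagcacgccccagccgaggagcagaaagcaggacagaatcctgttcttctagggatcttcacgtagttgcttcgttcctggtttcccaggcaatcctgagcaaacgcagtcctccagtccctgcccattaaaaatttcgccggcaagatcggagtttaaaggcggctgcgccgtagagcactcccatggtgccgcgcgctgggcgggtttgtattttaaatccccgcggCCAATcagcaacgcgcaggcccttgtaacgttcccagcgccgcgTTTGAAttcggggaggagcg
Cdc20: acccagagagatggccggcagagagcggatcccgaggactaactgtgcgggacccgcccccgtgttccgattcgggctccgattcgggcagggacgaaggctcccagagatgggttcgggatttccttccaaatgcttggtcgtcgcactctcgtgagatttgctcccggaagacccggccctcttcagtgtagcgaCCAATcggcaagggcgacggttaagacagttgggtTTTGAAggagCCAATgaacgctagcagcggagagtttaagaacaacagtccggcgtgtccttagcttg
In Plk1 CCAAT starts 14 bases before the start site and TTTGAA 30 bases after it. In Cdc20 CCAAT starts 53 and 8 bases before the start site, with TTTGAA 18 bases before it.

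Most of the collagen and stromal genes called rose. Of 33 collagen chains, 17 were called higher and 6 lower, and the list summed to 2069 and 2158 CPM at E12.5 and to 4521 and 3943 CPM at E16.5. Col1a1, a fibrillar chain of connective tissue, had 127 and 149.7 CPM at E12.5 and 906 and 810.5 CPM at E16.5 (log2 fold change 2.63, SE 0.13, edgeR adjusted p = 3.51e-09). Col3a1, another fibrillar chain, had 212 and 226 CPM at E12.5 and 756 and 736 CPM at E16.5 (log2 fold change 1.77, SE 0.11, edgeR adjusted p = 2.14e-08). Per kb of exon, Col1a1 had 21.1 CPM per kb at E12.5 and 131 at E16.5. Col4a4, a chain of adult basement membranes, had 2.69 and 1.63 CPM at E12.5 and 24.02 and 12.6 CPM at E16.5 (log2 fold change 3.08, SE 0.32, edgeR adjusted p = 3.10e-06). Col18a1, of epithelial basement membranes, had 341 and 352 CPM at E12.5 and 205 and 180.4 CPM at E16.5 (log2 fold change -0.85). Col8a1 had 0.510 and 0.395 CPM at E12.5 and 8.18 and 8.14 CPM at E16.5 (log2 fold change 4.15, SE 0.41, edgeR adjusted p = 1.93e-06). Col2a1, a chain of cartilage, had 10.4 and 5.53 CPM at E12.5 and 0.390 and 0.979 CPM at E16.5. Its log2 fold change was -3.59, or -4.33 without the second E16.5 library. At E13.5 Col2a1 had 0.457 and 0.399 CPM. Col8a2, not a cartilage chain, had 1.99 and 4.59 CPM at E12.5 and 16.4 and 23.2 CPM at E16.5, and its log2 fold change, 2.59, was 3.30 without the second E12.5 library. Col9a3, also of cartilage, had 22.6 and 26.0 CPM at E12.5 and 3.51 and 5.20 CPM at E16.5 (log2 fold change -2.49). Col9a3 was also a member of the Sertoli list.

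Of 24 stromal and smooth muscle genes, 11 were called higher and 1 lower, and the list summed to 506 and 509 CPM at E12.5 and 1663 and 1405 CPM at E16.5. Dpt, dermatopontin of the matrix of fibroblasts, had 0.0463 and 0.198 CPM at E12.5 and 22.5 and 20.01 CPM at E16.5, its E12.5 levels resting on 1 and 4 counts (log2 fold change 7.39, SE 0.47, edgeR adjusted p = 2.49e-08). Its log2 fold change was 6.69 without the first and 8.63 without the second E12.5 library. Lum, lumican, had 2.55 and 2.57 CPM at E12.5 and 45.1 and 29.9 CPM at E16.5 (log2 fold change 3.87, SE 0.27, edgeR adjusted p = 5.51e-08). Eln, elastin, had 17.6 and 24.8 CPM at E12.5 and 194 and 195 CPM at E16.5 (log2 fold change 3.20, SE 0.16, edgeR adjusted p = 4.70e-09). Dcn, decorin, had 56.4 and 59.5 CPM at E12.5 and 319.9 and 249 CPM at E16.5 (log2 fold change 2.30). Ogn, osteoglycin, had 0.278 and 0.296 CPM at E12.5 and 7.88 and 3.79 CPM at E16.5, and its log2 fold change, 4.33, was 3.69 without the first E16.5 library. Mfap4, a microfibril protein, had 42.7 and 42.8 CPM at E12.5 and 362 and 344 CPM at E16.5 (log2 fold change 3.05, SE 0.12, edgeR adjusted p = 5.16e-10), with 126 and 134 CPM at E13.5 between the stages. Fbln5, needed to assemble elastic fibres, had 10.9 and 10.6 CPM at E12.5 and 55.0 and 52.7 CPM at E16.5 (log2 fold change 2.32). Pdgfra, the growth factor receptor of fibroblast precursors, had 45.6 and 47.1 CPM at E12.5 and 43.5 and 37.1 CPM at E16.5 (log2 fold change -0.20, adjusted p = 0.314).

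**Figure D4:**
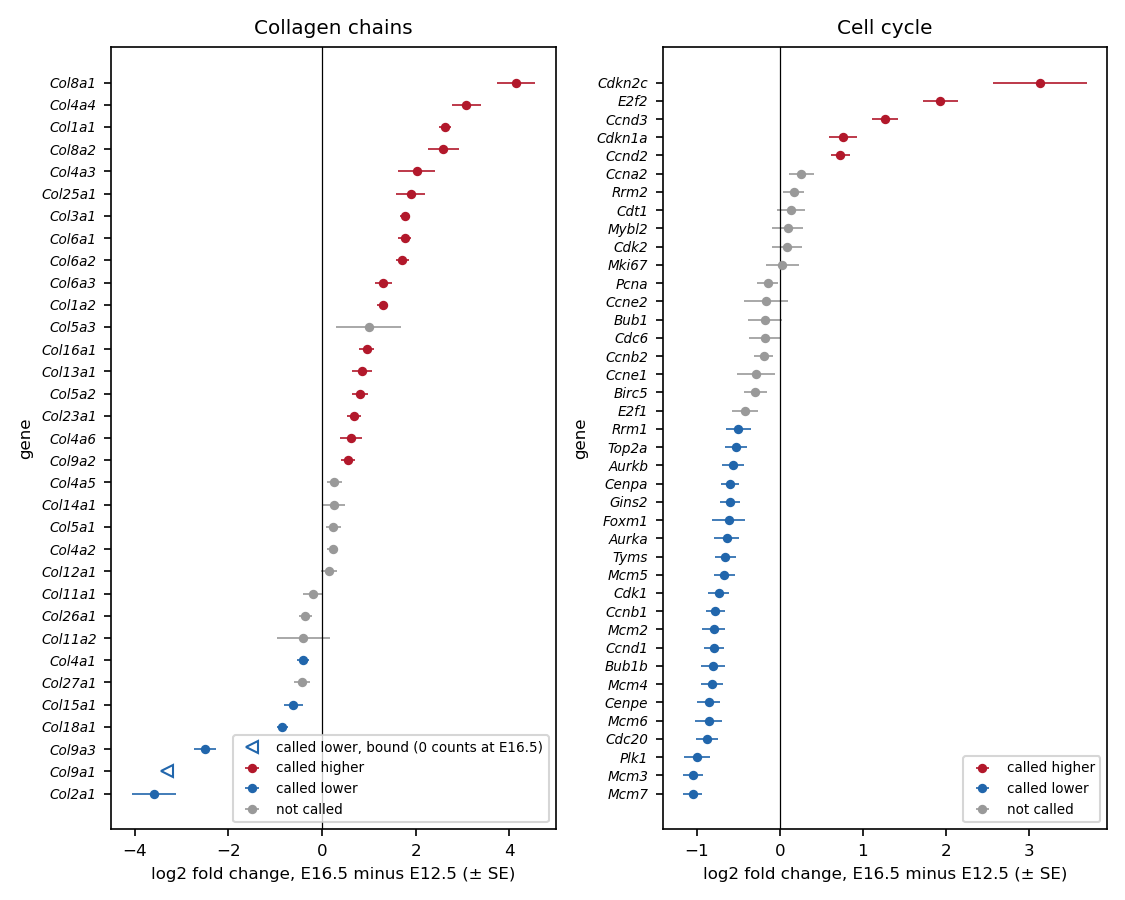
Log2 fold change of each tested collagen chain and cell cycle gene at E16.5 against E12.5, with the standard error as bar (no bar seen where it is smaller than the point), red for genes called higher, blue for lower and grey for not called. The open triangle is the bound of Col9a1, with 0 counts at E16.5. Collagen changes spread from below -3 to above 4, while the cell cycle genes called lower lie between -1.05 and -0.50.

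Genes of the surface epithelium and mesothelium were called higher in 7 of 15 and lower in 3. Epcam, an epithelial adhesion molecule, had 3.66 and 2.77 CPM at E12.5 and 21.5 and 25.1 CPM at E16.5 (log2 fold change 2.85, SE 0.25, edgeR adjusted p = 5.60e-07). Krt18, a keratin of simple epithelia, had 258 and 241 CPM at E12.5 and 612 and 801 CPM at E16.5 (log2 fold change 1.503). Krt8, its partner, had 88.9 and 88.0 CPM at E12.5 and 183 and 186 CPM at E16.5 (log2 fold change 1.06). Krt19 had 15.4 and 12.8 CPM at E12.5 and 55.3 and 58.2 CPM at E16.5 (log2 fold change 2.01). Bnc1, a mesothelial transcription factor, had 7.13 and 7.41 CPM at E12.5 and 2.51 and 2.999 CPM at E16.5 (log2 fold change -1.41). Genes of the mesonephros and its ducts, which adjoin the gonad, were called higher in 4 of 11 and lower in 2, and the 4 became 2 without the first E12.5 or the first E16.5 library. With all libraries, the shares of the mesonephros list were 36.4% higher and 18.2% lower, beside 20.5% and 17.1% of all genes tested. Gata3 had 19.7 and 21.3 CPM at E12.5 and 72.8 and 104 CPM at E16.5 (log2 fold change 2.10, SE 0.18, edgeR adjusted p = 4.23e-07). Pax8 had 20.4 and 26.2 CPM at E12.5 and 13.03 and 11.6 CPM at E16.5 (log2 fold change -0.92). The defining genes Pax2, Lhx1 and Wnt9b lay at or below 1.20 CPM in all 4 libraries.

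Red blood cell genes were measured at both stages. The haemoglobin genes listed took 1.73% and 1.59% of the counts at E12.5 and 1.62% and 1.05% at E16.5, while their kind was exchanged. Red cells of the yolk sac use the embryonic genes Hbb-y, Hbb-bh1 and Hba-x, and red cells of the fetal liver the adult ones. Embryonic genes made up 88.1% and 88.8% of the beta-type counts at E12.5, 66.3% and 69.3% at E13.5, and 6.22% and 0.3001% at E16.5. Of the alpha-type counts they made up 47.5% and 47.3% at E12.5, 26.1% and 27.2% at E13.5, and 1.81% and 0.255% at E16.5. Hbb-y (ENSMUSG00000052187.4, chromosome 7 from 103851749 to 103853216 on the minus strand, protein-coding) had 10184 and 9356 CPM at E12.5 and 552 and 15.9 CPM at E16.5 (log2 fold change -5.10, SE 0.92, edgeR adjusted p = 5.55e-04), so that the E16.5 libraries differed far more than the E12.5 libraries. Without the first E16.5 library its log2 fold change was -9.27, and without the second -4.15. For Hba-x, with 1899.6 and 1713 CPM at E12.5 and 104.9 and 9.43 CPM at E16.5, these values were -7.58 and -4.11, beside -4.97 in both libraries together. Hbb-bs, an adult beta gene, had 654 and 552 CPM at E12.5 and 5554 and 3277 CPM at E16.5 (log2 fold change 2.87, SE 0.21, edgeR adjusted p = 7.96e-08), in counts identical to those of Hbb-b1. In all, 12 of 15 erythroid genes were called higher and 3 lower, the 3 being the embryonic haemoglobin genes. Gata1, the erythroid factor, had 8.25 and 9.88 CPM at E12.5 and 49.1 and 54.8 CPM at E16.5 (log2 fold change 2.52).

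**Figure D5:**
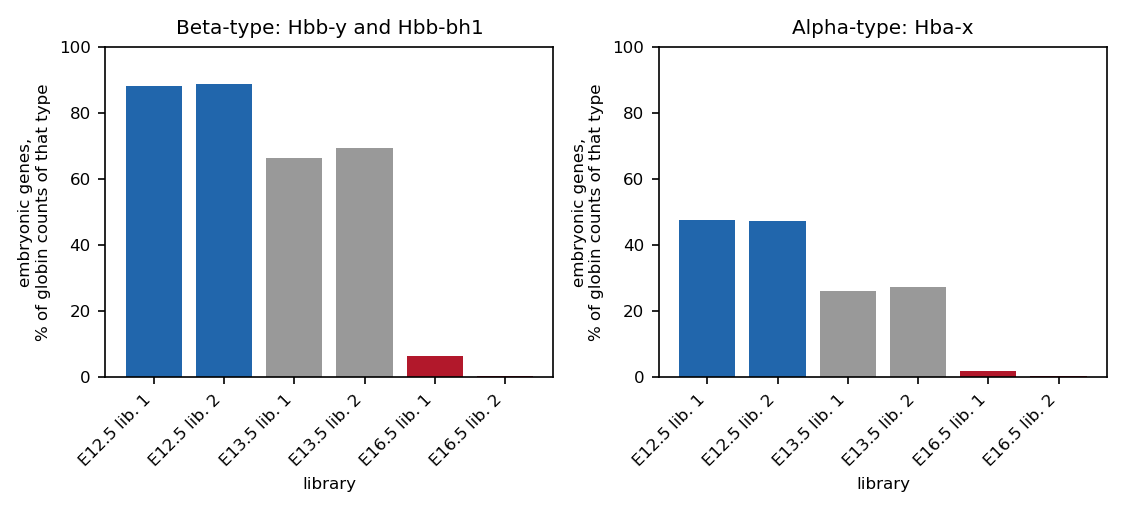
Share of embryonic haemoglobin genes in the beta-type counts (left, Hbb-y and Hbb-bh1 of these and Hbb-bs and Hbb-bt) and in the alpha-type counts (right, Hba-x of this and Hba-a1 and Hba-a2) of each library, in percent, as bars from 0. The share falls from E12.5 over E13.5 to E16.5 in both types, to at most 6.22% in the first and 0.3001% in the second E16.5 library.

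Mast cell genes rose. Of 11 tested, 10 were called higher and 0 lower, and the list summed to 17.7 and 23.2 CPM at E12.5 and 623 and 612 CPM at E16.5. Tpsb2, a tryptase of mast cell granules (ENSMUSG00000033825.10, chromosome 17 from 25366305 to 25369098 on the plus strand, protein-coding), had 1 and 1 counts at E12.5 and 5677 and 3954 at E16.5, a ratio of 5095 with a counting interval from 1413 to 42175. Tpsab1, a further tryptase, had 0 counts at E12.5 and 171 and 85 at E16.5, at least 35.1-fold higher. Cma1, a chymase, had 0.463 and 0.346 CPM at E12.5 and 241 and 260.4 CPM at E16.5 (log2 fold change 9.24, SE 0.32, edgeR adjusted p = 2.40e-10). Cpa3, a carboxypeptidase of the same granules, had 0.556 and 0.642 CPM at E12.5 and 35.2 and 20.1 CPM at E16.5 (log2 fold change 5.52, SE 0.37, edgeR adjusted p = 4.76e-08). Hdc, which makes histamine, had 3.24 and 6.62 CPM at E12.5 and 38.3 and 31.6 CPM at E16.5, and its log2 fold change, 2.83, was 3.43 without the second E12.5 library. Fcer1a and Ms4a2, subunits of the IgE receptor that defines mature mast cells, had at most 2 counts in each of the 4 libraries. Prss34, a further mast cell protease outside the list, had 1 and 3 counts at E12.5 and 619 and 509 at E16.5, and its log2 fold change, 8.14, was 7.54 without the first and 9.08 without the second E12.5 library.

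Macrophage genes were called higher in 10 of 18 and lower in 0. Lyz2, lysozyme of myeloid cells, had 17.2 and 21.3 CPM at E12.5 and 78.5 and 56.2 CPM at E16.5 (log2 fold change 1.81, SE 0.17, edgeR adjusted p = 1.08e-06). Cd14, a lipopolysaccharide receptor, had 1.02 and 1.09 CPM at E12.5 and 9.65 and 12.55 CPM at E16.5 (log2 fold change 3.39, SE 0.31, edgeR adjusted p = 9.18e-07). Fcer1g, the shared Fc receptor chain, had 4.35 and 5.34 CPM at E12.5 and 14.0 and 16.6 CPM at E16.5. Csf1r, the receptor that defines the lineage, had 18.3 and 19.3 CPM at E12.5 and 18.96 and 21.2 CPM at E16.5 (log2 fold change 0.10, adjusted p = 0.701). Cx3cr1, a chemokine receptor of the same cells, had 5.23 and 3.56 CPM at E12.5 and 9.65 and 7.47 CPM at E16.5, and lost its call without the second E12.5 or the first E16.5 library. Of 17 endothelial genes, 10 were called lower and 1 higher. Against E13.5, 2 were called lower and 4 higher at E16.5, beside 25.4% and 28.7% of all genes tested. Etv2 specifies endothelial and blood precursors. It had 129 and 107 counts at E12.5 and 2 and 1 at E16.5. The ratio between E12.5 and E16.5 was 76.2 (counting interval 25.1 to 362). At E13.5 Etv2 had 11 and 11 counts. The Sertoli cell genes Amh, Dhh, Cst9 and Dmrt1 and the Y-linked counts were likewise lower at E13.5 than at E12.5. Their part in the fall of Etv2 was not tested. Erg, an endothelial ETS factor, had 15.1 and 14.1 CPM at E12.5 and 4.98 and 6.06 CPM at E16.5 (log2 fold change -1.41). Tie1, an endothelial receptor, had 27.4 and 24.1 CPM at E12.5 and 12.2 and 9.18 CPM at E16.5 (log2 fold change -1.26). Emcn, endomucin, had 53.0 and 49.4 CPM at E12.5 and 24.5 and 24.7 CPM at E16.5 (log2 fold change -1.06). Pecam1, an adhesion molecule between endothelial cells, had 20.3 and 23.3 CPM at E12.5 and 11.3 and 13.8 CPM at E16.5, and lost its call without the second E12.5 library. Plvap, of endothelial fenestrae, had 13.53 and 10.8 CPM at E12.5 and 6.58 and 6.24 CPM at E16.5, and lost its call without the first.

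Neural and glial genes were called lower in 7 of 14 and higher in 5. Gap43, of growing axons, had 18.7 and 15.2 CPM at E12.5 and 3.33 and 3.79 CPM at E16.5 (log2 fold change -2.26, SE 0.25, edgeR adjusted p = 6.69e-06). Stmn2, of neurons, had 5.23 and 6.13 CPM at E12.5 and 3.77 and 2.26 CPM at E16.5, and lost its call without either E12.5 or without the second E16.5 library, in DESeq2 and with the libraries of both stages alone. Of the liver and yolk sac genes, 30.8% were called higher and 23.1% lower at E16.5, beside 20.5% and 17.1% of all genes tested. Liver genes were higher at E13.5 than at either stage for some members. Alb, albumin, had 1.02 and 0.543 CPM at E12.5 and 1.17 and 0.245 CPM at E16.5, against 47.5 and 42.1 CPM at E13.5. Of 13 liver and yolk sac genes, 4 were called higher and 3 lower, the 4 becoming 2 without either E12.5 library or without the second E16.5 library. Trf, transferrin, had 21.1 and 20.7 CPM at E12.5 and 26.8 and 29.9 CPM at E16.5, and lost its call without any 1 of the same 3 libraries and with the libraries of both stages alone.

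Immediate early genes, which cells switch on within minutes of a stimulus, were called higher in 14 of 19 and lower in 0, with a median log2 fold change of 0.86. The list summed to 5627 and 6178 CPM at E12.5 and to 7808 and 14664 CPM at E16.5, so that the second E16.5 library stood well above the other 3. Jun had 239 and 225 CPM at E12.5 and 861 and 1692 CPM at E16.5 (log2 fold change 2.46, SE 0.23, edgeR adjusted p = 1.19e-06). Dusp1, a phosphatase of MAP kinases, had 70.4 and 70.7 CPM at E12.5 and 305 and 759 CPM at E16.5 (log2 fold change 2.91, SE 0.28, edgeR adjusted p = 1.82e-06), and 2.11 on the log2 scale without the second E16.5 library. Nr4a1, a nuclear receptor, had 191 and 232 CPM at E12.5 and 300.2 and 721 CPM at E16.5, and its log2 fold change, 1.27, was 0.50 without the second E16.5 library. Atf3, a stress factor, had 159 and 158 CPM at E12.5 and 369.8 and 468 CPM at E16.5 (log2 fold change 1.40, SE 0.13, edgeR adjusted p = 1.13e-06). Without the second E16.5 library, which leaves 1 library at E16.5, 13 of the 19 were called higher, and without the first 18. Fos was not called, with 1162 and 1265 CPM at E12.5 and 881 and 1722 CPM at E16.5 (log2 fold change 0.10, adjusted p = 0.741).

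As a further check, 4 of 15 housekeeping genes were called higher and 6 lower, and the 6 became 2 without the first and 3 without the second E12.5 library. With all libraries, the shares were 26.7% higher and 40.0% lower, beside 20.5% and 17.1% of all genes tested. Actb had 13501 and 12658 CPM at E12.5 and 12449 and 12389 CPM at E16.5. B2m, the light chain of class I antigens, had 45.3 and 45.3 CPM at E12.5 and 120.5 and 136 CPM at E16.5 (log2 fold change 1.503, SE 0.13, edgeR adjusted p = 4.80e-07). Hprt had 42.0 and 43.8 CPM at E12.5 and 74.5 and 92.4 CPM at E16.5 (log2 fold change 0.96). Pgk1, of glycolysis, had 508 and 489 CPM at E12.5 and 256 and 337 CPM at E16.5 (log2 fold change -0.75). Gapdh had 216 and 187 CPM at E12.5 and 112 and 115 CPM at E16.5, in counts identical to those of Gapdh-ps15.

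Some genes of the largest changes belonged to no list. Among the rises, Tex13b, a testis-expressed gene on the X chromosome (ENSMUSG00000042386.7, chromosome X from 140808307 to 140813433 on the minus strand, protein-coding), had 0 counts at E12.5 and 390 and 238 at E16.5, at least 98.3-fold higher. Tex101, a germ cell surface protein, had 0.185 and 0.198 CPM at E12.5 and 67.1 and 117 CPM at E16.5 (log2 fold change 8.85, SE 0.44, edgeR adjusted p = 5.60e-09). Lypd4 had 0 counts at E12.5 and 116 and 177 at E16.5, at least 33.9-fold higher. AI481877 had 0 counts at E12.5 and 166 and 108 at E16.5, at least 44.6-fold higher. Ccdc172 had 0 and 1 counts at E12.5 and 429 and 377 at E16.5, a ratio of 843 (counting interval 153 to 33803). Among the falls, Sprr2d, a cornified envelope gene, had 223 and 203 counts at E12.5 and 0 and 1 at E16.5, a ratio of 333 between E12.5 and E16.5 (counting interval 71.7 to 15903). Dct, a melanin synthesis enzyme of pigment cells, had 15.6 and 16.8 CPM at E12.5 and 0.519 and 0.857 CPM at E16.5 (log2 fold change -4.59, SE 0.34, edgeR adjusted p = 2.24e-07). Cpa1, a carboxypeptidase, had 30.9 and 30.1 CPM at E12.5 and 2.34 and 1.90 CPM at E16.5 (log2 fold change -3.83, SE 0.20, edgeR adjusted p = 5.30e-09), with 34.7 and 35.4 CPM at E13.5. Scrt2, a neural transcription repressor, had 7.41 and 6.97 CPM at E12.5 and 0.0433 and 0.428 CPM at E16.5. Crmp1, a protein of growing axons, had 9.64 and 11.96 CPM at E12.5 and 0.693 and 0.306 CPM at E16.5. Aqp5, a water channel, had 4.91 and 5.19 CPM at E12.5 and 0.346 and 0.245 CPM at E16.5. Tgm3, a transglutaminase, had 6.76 and 8.75 CPM at E12.5 and 0.693 and 0.184 CPM at E16.5. Sel1l3 had 11.8 and 13.49 CPM at E12.5 and 0.649 and 1.16 CPM at E16.5. The log2 fold changes of several of these moved with single libraries. That of Ccdc172, 9.39, was 8.52 without the first E12.5 library, and leaving out the second leaves E12.5 at 0 counts. That of Sprr2d, -8.29, was -7.22 without the first E16.5 library, and leaving out the second leaves E16.5 at 0 counts. That of Scrt2, -5.06, was -4.05 without the first and -7.16 without the second E16.5 library. That of Tgm3, -4.03, was -5.35 without the first and -3.47 without the second E16.5 library. That of Crmp1, -4.35, was -5.11 without the first and -3.95 without the second E16.5 library.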

How the data were processed

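RNA was measured by bulk RNA-seq (poly-A selected, per the labels). The authors deposited whole-number read counts per gene for these libraries. Their processing notes name Trim Galore, FastQC, HISAT2, SAMtools, featureCounts and RSEM with build mm10, without saying which made this table, and name no versions; whether strand was used is not given in the sources used here. From the deposited counts, genes were filtered with filterByExpr and fitted in edgeR 4.0.16 (R 4.3.3) with TMM scaling in 1 quasi-likelihood model of the 8 libraries of these stages, E13.5 and P6w, after a check on simulated data, where 174 of 200 changed genes were recovered beside 11 false calls. The simulation drew all libraries from the E12.5 means with the same spread, and 15485 genes were tested in it. It held neither the wider spread between the E16.5 libraries nor so large a share of changed genes. Its figures are thus not error rates of this comparison. Of 22173 genes counted, 571 had no count, 15 names were turned into dates by a spreadsheet, and 192 tested genes share their counts with another gene. Folds against a stage at 0 counts are bounds against 3 counts per library.

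The comparison, the lists and the promoter motifs were chosen with earlier results of these data known. The largest changes and the list members were picked among called genes with a mean of at least 5 CPM in the higher stage. The libraries of the stages had to be free of overlap, and names of pseudogene or clone style were passed over. Genes were named by rule: the 15 largest such rises and falls, up to 6 such members of each list by fold, and a set of markers whatever their result. Named outside it, after their values were seen, were Actb, Acvr2b, Alb, Bmp15, Ccnb1, Cdkn1a, Col18a1, Col3a1, Col9a1, Csf1r, Dkk1, Eif2s3y, Fcer1a, Fos, Fshr, Gata1, Hba-a1, Hba-a2, Hbb-b1, Hbb-bt, Kdm5d, Lhx1, Lhx8, Mro, Ms4a2, Msh5, Nanog, Nlrp5, Oosp1, Padi6, Pax2, Piwil2, Pou5f1, Prdm9, Rbp4, Rec8, Smc1b, Sox10, Spo11, Stag3, Syce1, Syce2, Syce3, Sycp2, Trip13, Uty, Wif1, Wnt5b, Wnt9b, Zar1, Zp1, Zp2 and Zp3. Alternatives were DESeq2 1.42.0, RLE scaling, no filter, only the 4 libraries compared, a replicate block, a length term, a 2-fold threshold, single libraries left out and, added after the data were seen, identical genes counted once. Some members of the lists are not reported here.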

Additional observations from a re-analysis of the deposited data

How the results depend on the processing

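The number of genes called ranged from 3814 to 6569 as single libraries were left out (2224 to 3450 higher, 1590 to 3119 lower), lowest without the first E12.5 library and, at 3899, without the second (2260 higher, 1639 lower). With 2 libraries a stage, each leaves 1 library that is assumed to vary like the other groups. DESeq2 called 2982 genes higher and 2603 lower, the 4 libraries alone 2970 and 2165, and a length term 3314 and 3188, with 0 calls turned in direction. Of 191 genes named by rule, DESeq2 kept 187 on their side of the threshold and RLE scaling all 191. Lists whose counts moved by over 1.5 times with 1 library were Wnt (8 to 13 called higher), Notch (3 to 7 lower), PI3K-Akt inputs (8 to 18 higher), mesonephros (2 to 4 higher), liver (2 to 3 higher) and housekeeping (2 to 7 lower). In the 4 libraries alone, 1 liver gene was called higher and 3 housekeeping genes lower.

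With at least 2-fold required, 2752 genes were called, 1927 higher and 825 lower, 5 primordium, 2 Hedgehog, 3 Notch, 3 cell cycle, 4 endothelial and 0 housekeeping genes lower, and 4 pre-granulosa, 2 steroid, 3 Leydig, 3 retinoic acid, 5 Wnt, 8 and 3 PI3K-Akt input and core, 5 IGF, 11 collagen, 6 macrophage and 9 immediate early genes higher. Replicate numbers gave no sign of pairing (correlations of deviations from -0.0688 to 0.121), and a replicate block called 3364 higher and 2897 lower. The log2 fold change of Kitl ranged from -0.025 to 0.053 as single libraries were left out, negative without either second library. That of Mki67 ranged from -0.46 without the first to 0.38 without the second E16.5 library, and was -0.016 under the block. The cause was not tested. The egg coat genes were near the limit of counting, and the Y-linked genes listed summed to 0 and 1 counts at E16.5. The part of depth in these levels was not tested.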

Other observations

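Genes of high level outside the lists, chosen after their values were seen as the largest changes among those of at least 200 CPM at 1 stage, included Chchd10, a protein of mitochondrial cristae, with 10.1 and 7.95 CPM at E12.5 and 582 and 830.2 CPM at E16.5. Sdc4, a heparan sulfate proteoglycan of the cell surface, had 349.9 and 367 CPM at E12.5 and 2302 and 3799.8 CPM at E16.5. Lmna, lamin A of the nuclear lamina, had 84.0 and 97.0 CPM at E12.5 and 544 and 788 CPM at E16.5. Phlda1 had 22.6 and 23.6 CPM at E12.5 and 277 and 450.1 CPM at E16.5. Ube2s, a ubiquitin-conjugating enzyme of the anaphase-promoting complex, had 46.3 and 38.9 CPM at E12.5 and 402 and 646 CPM at E16.5. Hspb1, a small heat shock protein, had 29.7 and 23.5 CPM at E12.5 and 147 and 344 CPM at E16.5, so that the second E16.5 library was the highest, as it was in the immediate early genes.

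Among the falls, Hmga2, a chromatin protein of fetal growth, had 491 and 456 CPM at E12.5 and 43.0 and 38.1 CPM at E16.5, with 138 and 111 CPM at E13.5 between the stages. Igf2bp1, an RNA-binding protein of fetal cells, had 270.0 and 302 CPM at E12.5 and 57.6 and 59.2 CPM at E16.5, with 78.7 and 85.5 CPM at E13.5. Ldhb, a lactate dehydrogenase subunit, had 3003 and 2673 CPM at E12.5 and 1003 and 970.5 CPM at E16.5. Ifitm1, an interferon-induced membrane protein, had 755 and 655 CPM at E12.5 and 256 and 316 CPM at E16.5. In each of these genes the libraries of the stages did not overlap.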
